A study of Mus musculus with 4 samples.

Results

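Natriuretic peptide, adrenergic, prostaglandin and adenosine receptors that set the cyclic nucleotide level of fat cells were followed through single-nucleus RNA libraries of mouse fat. The members were 9 genes given by name, of 32285 genes in the tables, and all 9 were present. Npr1, Npr2 and Npr3 encode natriuretic peptide receptors, Adrb1, Adrb3, Adra1a and Adra2a adrenergic receptors, Ptger3 a receptor of prostaglandin E2, and Adora1 an adenosine receptor. All mice were on a high-fat diet. The 4 groups were tissue labelled Brown Adipose Tissue (BAT) from a sham group, the same tissue label from a surgery group, tissue labelled Beige Adipose Tissue (BeAT) from a sham group, and BeAT from a surgery group. The series title names the operation as bariatric. The sources used here give no strain, age, time after surgery or number of pooled animals.

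Each group was 1 library, so no difference could be set against the spread between animals and no test was run. Every interval given is a 95% interval that covers counting error only. A level is the count of unique molecular identifiers (UMIs) of a gene, summed over the nuclei of a class in a library and scaled to CPM of all UMIs of that class. Where 4 values stand in a row, they follow the brown label first and then the beige label, with sham before surgery in each. A gene was counted in a comparison with at least 50 UMIs over its 2 libraries. It was called higher or lower if, besides, the CPM ratio reached 2-fold with an interval clear of 1, which is a rule of size only. The words rose and fell are kept for called genes.

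As background, catecholamines acting on beta-adrenergic receptors raise cyclic AMP in fat cells through the G protein Gs, and cyclic AMP switches on lipolysis and, in brown and beige fat, heat production. Alpha2-adrenergic receptors, the EP3 receptor encoded by Ptger3 and the adenosine A1 receptor couple to Gi and hold cyclic AMP down, and alpha1-adrenergic receptors couple mainly to Gq and calcium. The atrial peptide acts on Npr1, a receptor that is itself a guanylyl cyclase and makes cyclic GMP. Npr3 lacks the cyclase domain and takes the peptides up for degradation, so fat cells with more Npr3 relative to Npr1 are regarded as less responsive to them.

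The 250 bases before the RefSeq transcript start (GRCm38.p6) are shown for the 3 members that were called between surgery and sham in adipocyte-like nuclei of the brown label. They are written 5′ to 3′ on the strand of the gene, and capitals mark the motifs found.

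Npr3 (chr15:11907372-11907621, minus strand): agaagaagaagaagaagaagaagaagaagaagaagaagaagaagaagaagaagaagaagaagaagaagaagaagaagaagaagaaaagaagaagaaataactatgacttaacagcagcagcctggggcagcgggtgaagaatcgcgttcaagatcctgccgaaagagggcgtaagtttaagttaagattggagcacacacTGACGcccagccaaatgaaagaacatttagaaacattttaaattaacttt

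Adrb1 (chr19:56721867-56722116, plus strand): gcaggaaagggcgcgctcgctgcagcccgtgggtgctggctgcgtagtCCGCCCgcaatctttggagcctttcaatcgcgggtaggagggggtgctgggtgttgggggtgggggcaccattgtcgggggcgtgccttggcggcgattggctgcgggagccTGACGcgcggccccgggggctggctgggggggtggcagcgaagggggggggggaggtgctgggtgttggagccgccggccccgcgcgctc

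Npr1 (chr3:90465867-90466116, minus strand): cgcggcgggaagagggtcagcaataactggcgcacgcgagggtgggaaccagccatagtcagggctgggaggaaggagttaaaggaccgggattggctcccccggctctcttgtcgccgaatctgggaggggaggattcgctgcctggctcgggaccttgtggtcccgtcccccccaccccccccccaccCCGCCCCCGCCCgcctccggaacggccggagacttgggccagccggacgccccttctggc

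The motifs searched on both strands were the cyclic AMP response element TGACGTCA, its short core TGACG (which lies within TGACGTCA), the E-box CACGTG, the GC box GGGCGG and the TATA motif TATAAA. They occurred in 1.55%, 17.8%, 6.02%, 32.7% and 12.4% of 32851 promoters of this length. The Npr3 window held 1 copy of TGACG and began with a run of GAA repeats. Its GC content of 38.8% was at the 10th percentile of all promoters (38.8%). The Adrb1 window held 1 copy of TGACG and 1 GC box at 74.0% GC, and the Npr1 window held 2 GC boxes at 70.4% GC. Both lay above the 90th percentile (69.2%, with a median of 52.4%). A match is a description of the letters in the window.

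The libraries held 5952 to 10445 barcodes and 23118695 to 60409801 UMIs, and 36 to 73 barcodes were shared by any pair of libraries. After filters and removal of likely doublets, 5592 to 9791 nuclei remained per library, with median depths of 2661 to 5231 UMIs. Nuclei were clustered without the 9 members, and clusters took a class name from marker genes. Adipocyte-like nuclei numbered 4079 (41.7% of kept nuclei), 573 (6.13%), 4849 (49.7%) and 493 (8.82%). The adipocyte-like class was named from 10 adipocyte markers, so their presence in it follows from the naming. Plin1 was at 943 to 1626 CPM and Lipe at 796 to 1107 CPM. Of the 9 brown and beige fat markers some were absent and some present in adipocyte-like nuclei. Ucp1, the uncoupling protein of brown and beige fat, had 2, 0, 3 and 0 UMIs, Zic1 had 1, 0, 0 and 0, Elovl3 had none, and Dio2 and Cox7a1 were at 1.95 CPM or below. Prdm16 was at 248, 36.2, 261 and 327 CPM, Ppargc1a at 123, 52.8, 127 and 137, Cidea at 29.4, 2.21, 59.6 and 34.7, and Lhx8 at 19.2, 1.66, 7.06 and 12.6 CPM. Ucp1 was thus at 0.146 CPM or below in every library, those labelled brown included. BAT surgery held 5843 epithelial-like nuclei with Gpx5, a gene of the epididymis. Gpx5 RNA reached 583 CPM in the adipocyte-like nuclei of that library and 0 CPM in those of the other 3. BeAT surgery held 1700 B cell-like and 1578 T or NK-like nuclei. Surgery and these differences between libraries cannot be told apart.

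In adipocyte-like nuclei Npr3 fell with surgery under both tissue labels, Adrb1 fell under the brown and Adrb3 under the beige label, and Adra1a rose under the beige label. The surgery over sham ratios of Ptger3, Adora1 and Npr2 lay between 0.673 and 1.0. In the brown-label comparison 8 members were counted, of which 1 was called higher (Npr1) and 2 lower (Npr3 and Adrb1), where 5.40% of 13034 counted genes were called higher and 11.9% lower. In the beige-label comparison 7 were counted, of which 1 was called higher (Adra1a) and 2 lower (Npr3 and Adrb3), where 4.38% of 12498 genes were called higher and 15.1% lower. Adra2a was too sparse to be counted in any comparison, and Npr1 in those with BeAT surgery. The median log2 ratio of the counted members was -0.44 and -0.14 against -0.07 and -0.09 for all counted genes. The summed CPM of the 10 adipocyte markers was 25140 in sham and 40934 after surgery under the brown label, and 22440 and 40759 under the beige label. Ghr alone was at 11524, 26744, 8915 and 24438 CPM, and without it the sums were 13616, 14189, 13525 and 16320 CPM. Of the 10 markers 5 were lower after surgery under each label, among them Adipoq at 575, 325, 813 and 291 CPM, Plin1 at 1626, 943, 1616 and 1239, and Cidec at 1600, 1062, 1782 and 1350. Their part in the member ratios was not tested. The median depth of adipocyte-like nuclei was 5856, 6313, 4115 and 8796 UMIs in the same order.

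**Figure D1:**
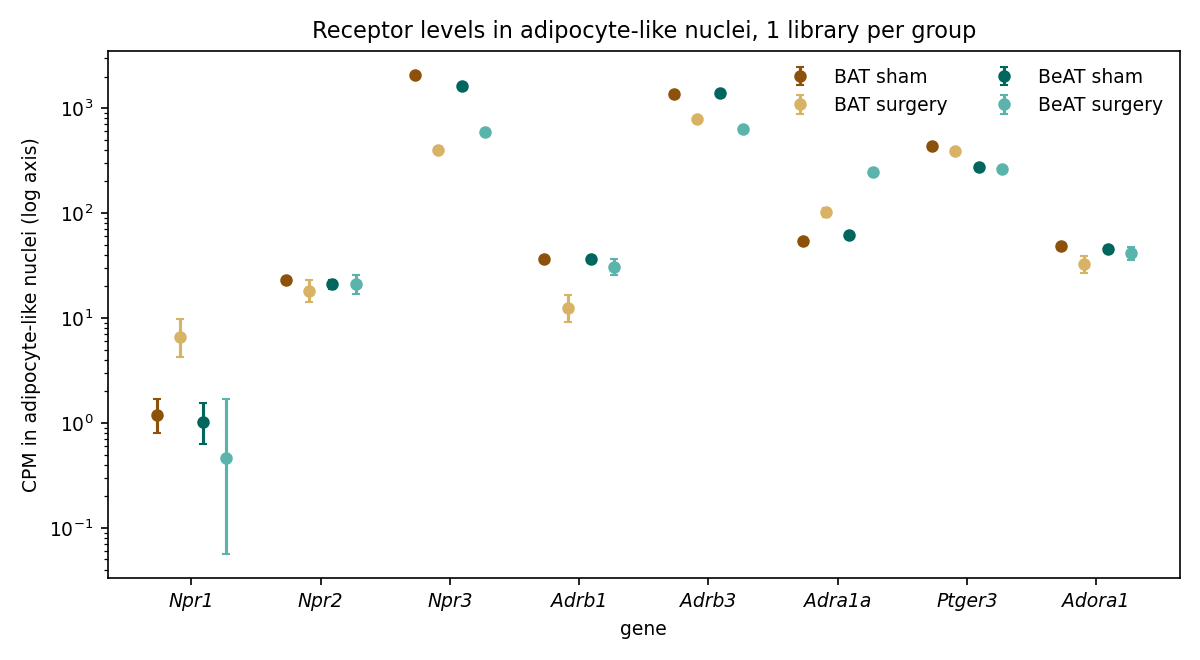
Levels of 8 members in adipocyte-like nuclei, as CPM on a log axis, with 1 point per library (BAT or BeAT, sham or surgery) and exact Poisson 95% intervals for counting error only. Npr3 is at 2066 and 1610 CPM in the sham libraries and at 401 and 597 CPM in the surgery libraries, and Adra1a is highest in BeAT surgery at 246 CPM. Adra2a, with 2 UMIs in all, is not drawn.

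Npr3 (chr15:11839896-11907287, minus strand, 67.4 kb in GENCODE M21 on GRCm38), the clearance receptor, had the most UMIs of the members. Its level in adipocyte-like nuclei was 2066 CPM (2048 to 2083) in sham and 401 (380 to 422) after surgery under the brown label, and 1610 (1593 to 1628) and 597 (574 to 620) under the beige label. The 2 sham libraries were high and the 2 surgery libraries low, and no interval overlapped another. Npr3 fell 5.15-fold (4.89 to 5.43) with surgery under the brown label and 2.70-fold (2.59 to 2.81) under the beige label. The share of adipocyte-like nuclei with an Npr3 UMI was 91.1%, 48.5%, 84.6% and 76.3% in the same order. With every nucleus of at least 1000 UMIs thinned to 1000 UMIs, it was 72.0%, 21.5%, 63.5% and 35.2%, so the order of the shares followed the CPM. Shallower nuclei were left out wherever nuclei were thinned, which was 109, 39, 208 and 13 adipocyte-like nuclei.

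Npr1 (chr3:90450591-90465866, minus strand), the cyclase receptor for the atrial peptide, was near the lower limit of detection in the same nuclei. Its UMIs numbered 30, 24, 21 and 2, which is 1.19, 6.63, 1.02 and 0.466 CPM, in 0.735%, 3.32%, 0.412% and 0.406% of nuclei. BAT surgery stood above the other 3 libraries, and Npr1 rose 5.56-fold (3.11 to 9.84) there over BAT sham. The level in BAT surgery was 1.24 CPM in macrophage-like nuclei (4 UMIs), 0 UMIs in T or NK-like nuclei and 4.35 CPM in epithelial-like nuclei, so all 3 were below the adipocyte-like level. Other nuclei of BAT surgery were above it. Npr1 was at 71.4 CPM (174 UMIs) in an unnamed cluster led by C7, Wt1 and Col6a5. It was at 22.8 CPM in an unnamed cluster with Krt14 and Krt5 among its leading genes. Endothelial-like and lymphatic endothelial-like nuclei, given below, were also higher. The call rests on 24 against 30 UMIs. With nuclei thinned to 1000 UMIs the gene was too sparse to be counted, at a log2 ratio of 2.57 against 2.48. The part of RNA from other nuclei of that library was not tested. Under the beige label 2 against 21 UMIs were too few to be counted.

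Npr2 (chr4:43631935-43651244, plus strand), the cyclase receptor for the C-type peptide, was even across the libraries. It was at 22.8, 18.2, 20.9 and 21 CPM in adipocyte-like nuclei, and all 4 intervals overlapped. The surgery over sham ratio was 0.801 (0.611 to 1.03) under the brown label and 1.0 (0.789 to 1.26) under the beige label, so a change of 2-fold lay outside both intervals.

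Adrb3 (chr8:27225776-27250616, minus strand), the beta3-adrenergic receptor of fat cells, was at 1363 CPM (1348 to 1377) in sham and 796 (768 to 826) after surgery under the brown label, and at 1393 (1377 to 1409) and 629 (605 to 653) under the beige label. Both sham libraries lay above both surgery libraries, and the intervals of the sham libraries met at 1377 CPM. Adrb3 fell 2.21-fold (2.13 to 2.30) with surgery under the beige label. Under the brown label it was 1.71-fold lower (1.65 to 1.78), under the 2-fold limit. With a limit of 1.5-fold, Adrb3 and Adra1a were also called under the brown label, where 19.7% of genes were called lower and 11.8% higher. An Adrb3 UMI was found in 93.2%, 82.5%, 92.1% and 86.4% of adipocyte-like nuclei, and in 65.8%, 46.6%, 66.8% and 39.0% after thinning.

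Adrb1 (chr19:56722199-56733113, plus strand), the beta1-adrenergic receptor, stood apart in 1 library. It was at 36.8 CPM (34.4 to 39.2), 12.4 (9.07 to 16.6), 36.5 (33.9 to 39.2) and 30.8 (25.7 to 36.5) in the 4 libraries. The interval of BAT surgery, from 45 UMIs, overlapped no other. Adrb1 fell 2.96-fold (2.19 to 4.08) with surgery under the brown label, and its ratio under the beige label was 0.844 (0.696 to 1.02).

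Adra1a (chr14:66635251-66771168, plus strand), an alpha1-adrenergic receptor gene spanning 136 kb, went the other way. Its level was 54.1 CPM (51.3 to 57.0) in sham and 102 (91.8 to 113) after surgery under the brown label, and 61.6 (58.3 to 65.1) and 246 (231 to 261) under the beige label. Both surgery libraries lay above both sham libraries with no overlap. Adra1a rose 3.99-fold (3.67 to 4.33) with surgery under the beige label, and under the brown label the ratio was 1.88 (1.68 to 2.12), under the limit. The share of nuclei with a UMI was 21.2%, 31.2%, 18.1% and 61.3%, and 4.89%, 10.5%, 5.52% and 21.2% after thinning. In the surgery libraries, T or NK-like nuclei held 0 UMIs (BAT) and 6.30 CPM (BeAT), and macrophage-like nuclei 4.67 and 3.30 CPM. These were below the adipocyte-like levels. Epithelial-like nuclei of BAT surgery, given below, held 866 of the 1278 Adra1a UMIs of that library, and adipocyte-like nuclei held 369. The part of RNA from other nuclei in the Adra1a levels was not tested. Median log2 ratios of all genes also moved with gene span. The longest of 20 span bins, from 236 kb (brown label) and 235 kb (beige label), had medians of 0.19 and 0.49. The shortest had -0.73 and -1.36. Adra1a lay in neither bin, and under the beige label it was still called with this trend taken off. Adrb1, which spans 10.9 kb, moved there from a log2 ratio of -0.25 to 0.14.

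**Figure D2:**
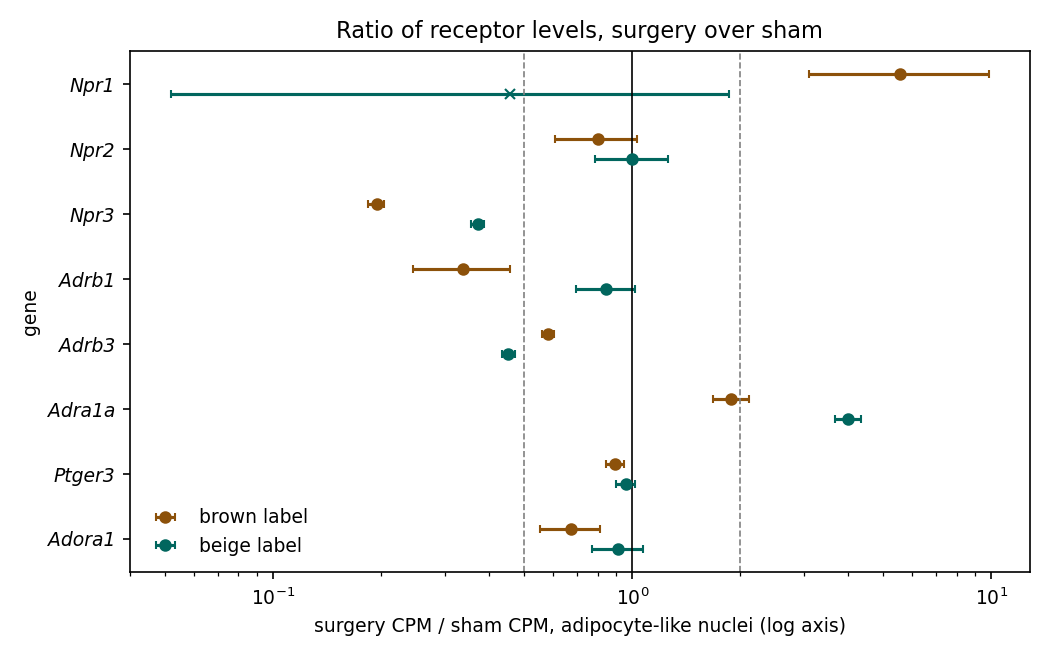
Ratio of CPM, surgery over sham, in adipocyte-like nuclei for the brown and beige labels (log axis), with exact conditional 95% intervals for counting error only. Dashed lines mark 2-fold and a cross marks a gene with under 50 UMIs. Npr3 lies left of the lower line under both labels, Adra1a reaches 3.99 under the beige label, and Ptger3 lies at 0.895 and 0.960.

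Ptger3 and Adora1, whose receptors couple to Gi, stayed within 2-fold between surgery and sham. Ptger3 (chr3:157566892-157645888, plus strand), encoding the EP3 receptor, was at 437 CPM (429 to 445), 391 (371 to 412), 272 (265 to 280) and 261 (246 to 277) in the same order. Here the libraries divided by tissue label, with both brown-label libraries above both beige-label ones, and the surgery over sham ratios were 0.895 (0.846 to 0.946) and 0.960 (0.899 to 1.02). The mix of adipocyte-like clusters also differed between the libraries, as given below. Adora1 (chr1:134199223-134235431, minus strand), the A1 receptor, was at 48.4, 32.6, 45.3 and 41.3 CPM, with ratios of 0.673 (0.553 to 0.814) and 0.910 (0.770 to 1.07). Its level was lowest in BAT surgery.

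Adra2a (chr19:54044151-54048982, plus strand), an alpha2-adrenergic receptor known for its antilipolytic action in human fat, was all but undetected in adipocyte-like nuclei. It had 2 UMIs in BAT sham, and 0 of 573, 0 of 4849 and 0 of 493 nuclei held one in the others. At this depth those counts allow shares of nuclei with an Adra2a UMI of up to 0.524%, 0.0619% and 0.609%, which is no limit on the share of nuclei that express the gene. Adra2a had 81 UMIs in all kept nuclei, 58 of them in unnamed clusters. The largest levels were in a cluster with Stac, Kcnj8 and Rgs4 among its leading genes, with 9 UMIs (8.62 CPM) in BAT sham, 6 (42.0 CPM) in BAT surgery and 8 (6.67 CPM) in BeAT sham. These UMIs lay in 5 of 297, 2 of 51 and 5 of 339 nuclei. The intervals of BAT sham (3.94 to 16.4 CPM) and BAT surgery (15.4 to 91.4 CPM) overlapped.

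Between the tissue labels in sham mice, no member was called, where 1.68% of 13928 genes were called higher in BAT and 1.03% lower. At 1.5-fold Ptger3 was called, where 5.65% of genes were called higher and 5.05% lower. Ptger3 was 1.60-fold higher (1.55 to 1.66) and Npr3 1.28-fold higher (1.27 to 1.30) in BAT, while the ratio was 0.978 (0.963 to 0.994) for Adrb3 and 1.01 (0.914 to 1.11) for Adrb1. Between the labels after surgery 7 members were counted and 2 were called lower in BAT, where 4.62% of 9576 genes were called higher and 3.51% lower. Adra1a was 2.41-fold lower (2.14 to 2.72) and Adrb1 2.48-fold lower (1.75 to 3.55) in BAT. Ptger3 was 1.5-fold higher (1.38 to 1.62) and Npr3 1.49-fold lower (1.40 to 1.59) in BAT. These comparisons use the same 4 libraries as those between surgery and sham. The labels also differed in their mix of adipocyte-like clusters, given next.

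The adipocyte-like class was made of 3 clusters, and the receptors differed between them. Cluster 0, led by Ces1f and Vat1l, held 2841, 33, 4172 and 196 nuclei of the 4 libraries. Cluster 2, with Ptchd4 and Mest among its leading genes, held 1237, 6, 677 and 296. Cluster 18, with Mageb18 and Klb among its leading genes, held 1, 534, 0 and 1, so for the brown label surgery cannot be told apart from the change of cluster.

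Npr3 and Ptger3 were higher in cluster 2 than in cluster 0 in both sham libraries, while Adrb3 and Adrb1 were lower. Npr3 was at 2728 against 1593 CPM in BAT sham and at 2538 against 1363 CPM in BeAT sham. Ptger3 was at 643 against 290 CPM and at 497 against 212 CPM. Adrb3 was at 1198 against 1480 CPM and at 1213 against 1441 CPM, and Adrb1 at 27.8 against 43.2 CPM and at 21.3 against 40.5 CPM. These are levels in clusters made from the same nuclei, and they are given as a description.

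Within clusters 0 and 2 the difference between BeAT surgery and BeAT sham was as large or larger for Npr3 and Adra1a. Npr3 was 3.12-fold lower (2.87 to 3.41) in cluster 0 and 3.83-fold lower (3.66 to 4.02) in cluster 2. Adra1a was 4.13-fold higher (3.63 to 4.68) and 4.45-fold higher (3.83 to 5.18). Adrb3 was 2.47-fold lower (2.29 to 2.66) in cluster 0 and 1.87-fold lower (1.78 to 1.97) in cluster 2, under the limit. Ptger3 was 1.23-fold higher (1.10 to 1.38) in cluster 0 and 1.90-fold lower (1.75 to 2.06) in cluster 2, so its ratio of 0.960 over the class joined opposite directions. In BeAT surgery Ptger3 stood at 262 CPM in both clusters. Adrb1 had ratios of 0.689 (0.473 to 0.973) in cluster 0 and 1.5 (1.12 to 2.02) in cluster 2.

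**Figure D3:**
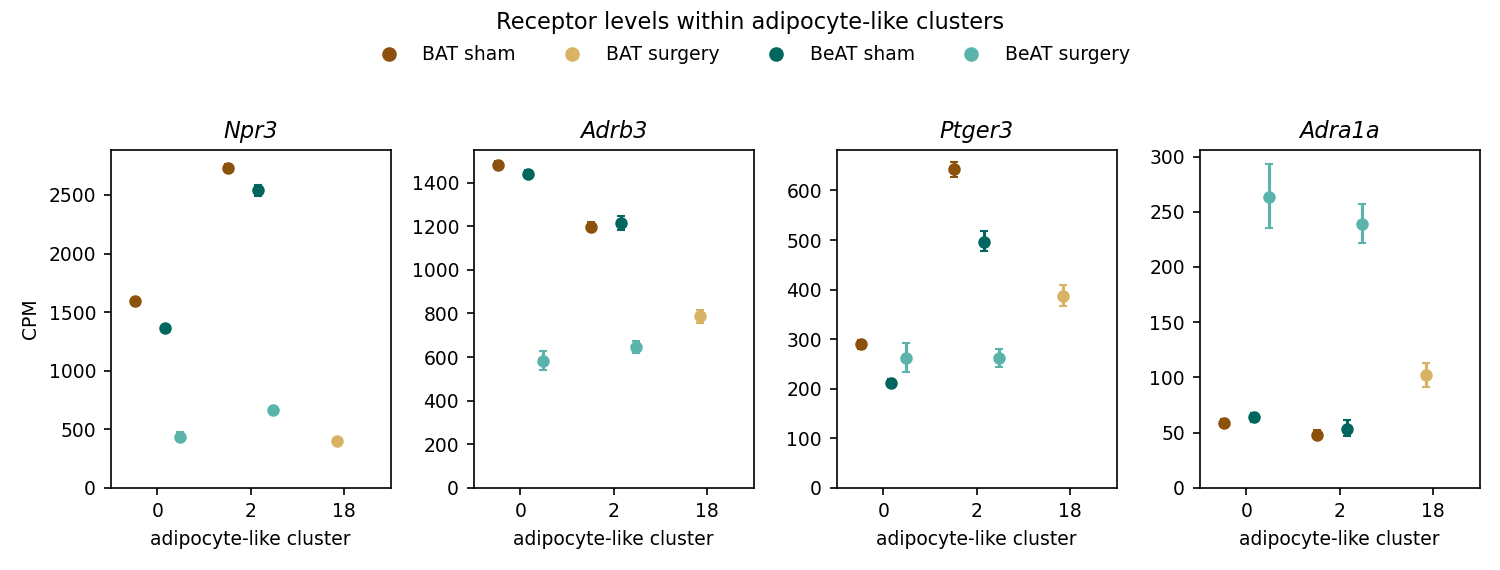
Levels of Npr3, Adrb3, Ptger3 and Adra1a (CPM, linear axes from 0) in adipocyte-like clusters 0, 2 and 18, with 1 point per library of at least 50 nuclei and exact Poisson 95% intervals for counting error only. Npr3 and Ptger3 are higher in cluster 2 than in cluster 0 in both sham libraries, and Ptger3 of BeAT surgery is at 262 CPM in both clusters.

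The members differed in which nuclei held their RNA. Adipocyte-like nuclei held 85.4% to 91.2% of the Npr3 UMIs of a library, 86.7% to 91.7% of Adrb3 and 87.6% to 91.1% of Ptger3. For Npr1 they held 1.08% to 4.36%. Npr2 lay between, at 33.5% to 62.1%. Adra1a, Adora1 and Adrb1 were at 71.0% to 87.5% in 3 libraries and at 28.9%, 38.9% and 36.0% in BAT surgery, where adipocyte-like nuclei were 6.13% of nuclei. Over all kept nuclei the Npr3 level was 1310, 31.5, 1114 and 144 CPM and the Adrb3 level 860, 58.3, 961 and 154 CPM. Those whole-library values join the smaller number of adipocyte-like nuclei with the level in each nucleus.

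**Figure D4:**
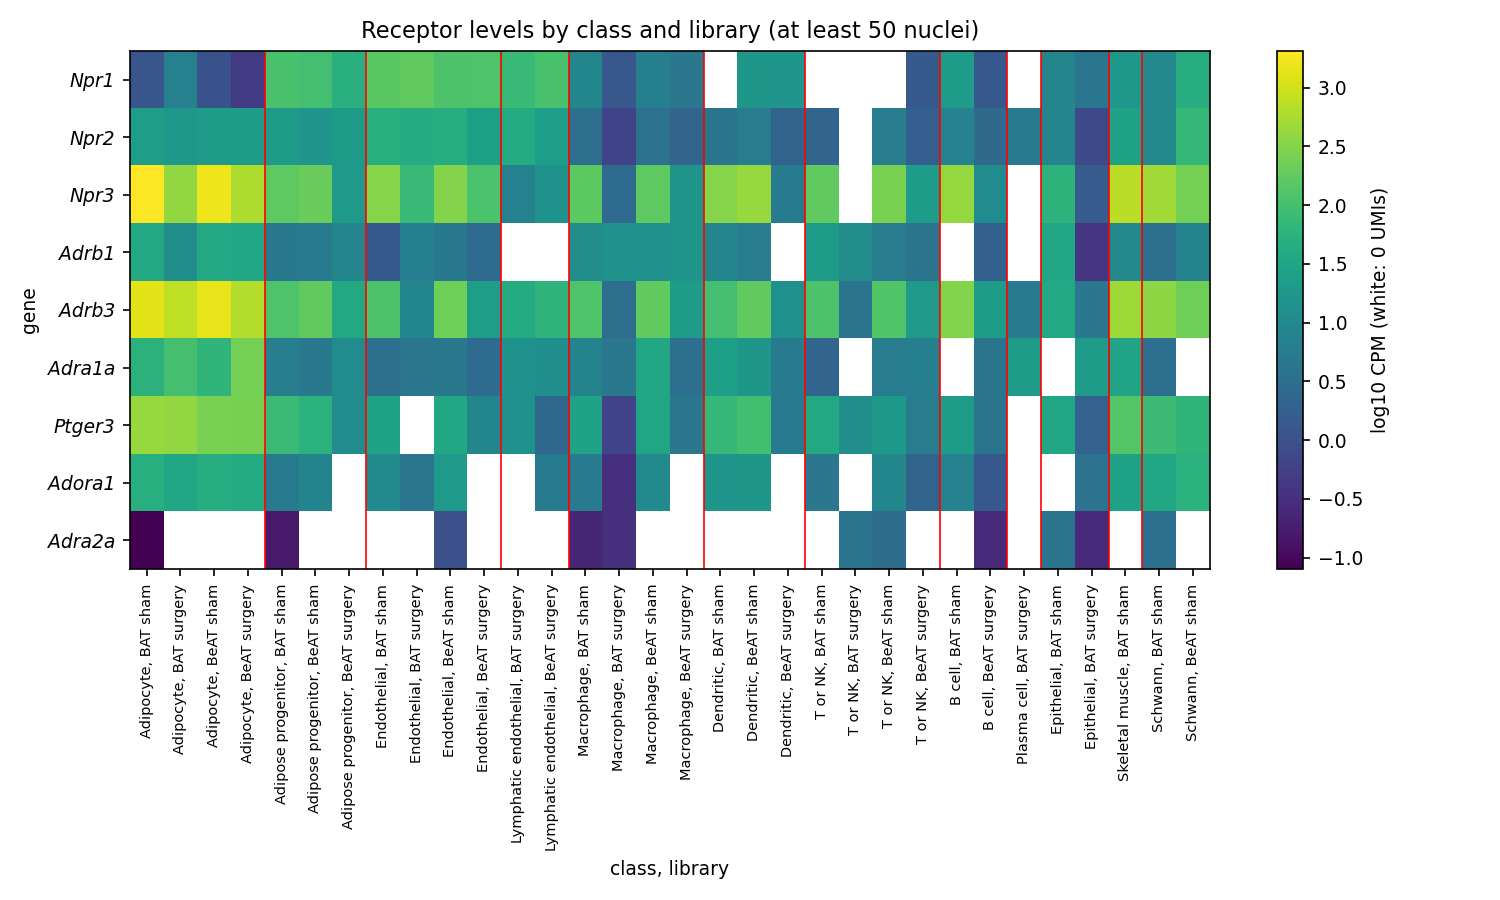
Heat map of member levels, as log10 CPM, by class and library for classes of at least 50 nuclei in that library, with white cells for 0 UMIs. Within each library Npr3, Adrb3 and Ptger3 are brightest in adipocyte-like nuclei, and Npr1 in endothelial-like, lymphatic endothelial-like and progenitor-like nuclei.

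RNA of adipocyte genes was also found in nuclei of other classes, at higher levels in the sham libraries. In T or NK-like nuclei, which should lack it, Adrb3 was at 120, 4.04, 132 and 19.4 CPM, and in macrophage-like nuclei at 128, 3.11, 172 and 22.0 CPM. The 10 adipocyte markers summed to 2587, 885, 3615 and 1269 CPM in macrophage-like nuclei. An Npr3 UMI was found in 12.4% of T or NK-like nuclei of each sham library, at median depths of 1822 and 1427 UMIs, and in 0% and 2.53% of those of the surgery libraries. As a description, the ratio of a member's UMIs to those of Adrb3 in a class was set against that ratio in adipocyte-like nuclei of the library. Adipocyte-like clusters themselves differed in this ratio. In BAT sham Npr3 and Adrb3 were at 2728 and 1198 CPM in cluster 2 and at 1593 and 1480 CPM in cluster 0. A quotient therefore does not identify the source of RNA. For Npr3 in BAT sham the quotient was 0.988 (0.887 to 1.10) in skeletal muscle-like nuclei, 0.928 (0.725 to 1.19) in Schwann-like nuclei and 0.953 (0.665 to 1.37) in T or NK-like nuclei. The Npr3 levels behind these quotients were 730 CPM in muscle-like, 512 CPM in Schwann-like and 174 CPM in T or NK-like nuclei. In T or NK-like nuclei of BeAT sham the quotient was 1.75 (1.21 to 2.56). The source of this RNA, free or from adipocyte nuclei joined to others, was not tested.

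Over the libraries, progenitor-like and endothelial-like nuclei held 976 and 699 of 2747 Npr1 UMIs. In BAT surgery, however, epithelial-like nuclei held 176 of 551. In endothelial-like nuclei Npr1 was at 154 CPM (138 to 172), 173 (138 to 215), 120 (106 to 136) and 126 (91.8 to 168). It was found in 31.1%, 33.5%, 25.8% and 27.1% of these nuclei. The surgery over sham ratio was 1.12 (0.869 to 1.43) under the brown label and 1.05 (0.745 to 1.44) under the beige label. In T or NK-like nuclei Npr1 had 0 UMIs in 3 libraries and 1.40 CPM in BeAT surgery. Progenitor-like nuclei had 110 CPM in BAT sham. Under the beige label they had 99.8 CPM in sham and 50.8 CPM after surgery, a ratio of 0.509 (0.351 to 0.718), and BAT surgery held too few such nuclei (21). Lymphatic endothelial-like nuclei had 77.0 CPM in BAT surgery and 110 in BeAT surgery.

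Npr3 was also lower with surgery in endothelial-like nuclei. It was at 330 CPM (306 to 356), 73.9 (51.5 to 103), 312 (288 to 337) and 117 (84.7 to 159), in 41.6%, 15.6%, 37.9% and 21.7% of nuclei, or 23.8%, 5.77%, 19.7% and 12.6% after thinning. Npr3 fell 4.47-fold (ratio 0.224, 0.155 to 0.314) under the brown label, where 13.7% of 7404 genes were called lower, and 2.65-fold (ratio 0.377, 0.269 to 0.515) under the beige label, where 23.6% of 7263 genes were called lower. RNA of adipocyte genes moved with this: Adrb3 in the same nuclei was at 122, 8.45, 220 and 22.4 CPM. The quotient of Npr3 over Adrb3 against adipocyte-like nuclei was 1.78 (1.54 to 2.07), 17.4 (6.22 to 67.3), 1.23 (1.09 to 1.38) and 5.53 (2.57 to 13.6). Npr3 was thus higher relative to Adrb3 than in adipocyte-like nuclei of the same library. The value for BAT surgery rests on 4 Adrb3 UMIs. T or NK-like nuclei of BeAT sham also had a raised quotient, above the endothelial-like one there. A raised quotient was thus not particular to endothelial-like nuclei. The mix of endothelial clusters also differed between sham and surgery, as given next. Neither the part of RNA from adipocytes nor that of the cluster mix in the fall of Npr3 was tested.

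The endothelial clusters differed in Npr3. A cluster led by Gpihbp1 and Car4, genes of capillaries, had 427 CPM (64.3% of nuclei) in BAT sham and 359 CPM (48.8%) in BeAT sham. It made up 196 of 769 endothelial-like nuclei in BAT sham and 379 of 736 in BeAT sham, and held 0 nuclei in either surgery library. A cluster with Cyyr1 and Adgrl4 among its leading genes was present in all 4 libraries, with 307 CPM (272 to 345), 104 (69.3 to 151), 250 (204 to 304) and 178 (126 to 246). There the intervals of BAT sham and BAT surgery were apart, and those of BeAT sham and BeAT surgery overlapped. Npr1 in this cluster was at 177, 130, 149 and 130 CPM. A cluster with Selp and Vwf had Npr3 at 225 CPM in BAT sham, 34.1 (7 UMIs) in BAT surgery and 179 in BeAT sham.

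Adrb1 was also found in macrophage-like nuclei. It was at 11.9, 14.3, 13.7 and 15.4 CPM there (53, 46, 30 and 14 UMIs), in 3.77%, 4.09%, 3.58% and 5.35% of nuclei. These levels were alike in all 4 libraries, with a surgery over sham ratio of 1.21 (0.796 to 1.83) under the brown label, a comparison in which Adrb1 of adipocyte-like nuclei fell. The quotient of Adrb1 over Adrb3 against adipocyte-like nuclei was 3.43 (2.54 to 4.56) in BAT sham and 3.05 (2.03 to 4.43) in BeAT sham, but it was also 6.18 (2.68 to 12.6) in T or NK-like nuclei of BAT sham. T or NK-like nuclei had Adrb1 at 20 CPM (9.16 to 38.0), 12.1 (2.5 to 35.4), 5.89 (0.713 to 21.3) and 3.96 (2.31 to 6.35), on 9, 3, 2 and 17 UMIs. The intervals of both classes overlapped in 3 libraries, and in BeAT surgery the macrophage-like level of 15.4 CPM (8.43 to 25.9) lay above. Of the T or NK-like nuclei 4.15%, 2.17%, 1.03% and 0.951% held an Adrb1 UMI. The part of RNA from other nuclei was not tested.

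Adra1a was found in certain nuclei outside the fat cells. In BAT surgery, epithelial-like nuclei had 866 Adra1a UMIs, of which 805 were in 1 cluster of 137 nuclei led by Mcf2, Slco1a5 and Atp6v1g3, at 669 CPM and in 89.1% of its nuclei. A macrophage-like cluster led by Mmp12 and Lyz1 had 36.9 CPM (22.5 to 57.0) in BAT sham, 9.71 (5.17 to 16.6) in BAT surgery, 83.0 (63.5 to 107) in BeAT sham, and 0 UMIs in BeAT surgery. Its nuclei numbered 159, 413, 223 and 97. In the sham libraries the quotient over Adrb3 was 9.0 (5.11 to 15.2) and 13.1 (9.42 to 18.2).

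Ptger3 was also found in a progenitor-like cluster led by Lum and Smoc2, at 92.2 CPM (22.5% of nuclei) in BAT sham and 52.6 CPM (11.6%) in BeAT sham, with quotients of 5.64 (4.67 to 6.83) and 2.85 (2.23 to 3.62). In the progenitor-like cluster led by Pi16 the level was 69.0 and 56.2 CPM, and the quotients were 0.924 (0.775 to 1.10) and 0.708 (0.498 to 0.984). The source of the Ptger3 RNA in these clusters was not tested. Npr2 was at 47.0, 42.2, 45.6 and 25.2 CPM in endothelial-like nuclei and at 21.5, 15.8 and 20.6 CPM in progenitor-like nuclei of BAT sham, BeAT sham and BeAT surgery.

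The genes with the most similar pattern were sought for the 3 members with the most UMIs. Over 32 sums of a class in a library (12 classes, 14119 genes with at least 500 UMIs), Npr3 was closest to Lipe, the hormone-sensitive lipase (Pearson r 0.952 on log2 CPM plus 1), Phlda3 (0.930) and Dgat2, which makes triglyceride (0.926). Adrb3 was closest to Dgat2 (0.979), Acvr1c (0.975) and Ces1d (0.972), and Ptger3 to Plin1 (0.927), Chpt1 (0.915) and Nrg4 (0.913). The points share libraries, and RNA of adipocyte genes was found in other classes of a library.

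Lists of genes around the receptors were followed in the same adipocyte-like nuclei. The count of each list was read against the shares called over all counted genes, 5.40% higher and 11.9% lower under the brown label and 4.38% and 15.1% under the beige label. Of 15 related receptors 6 were counted in each comparison of surgery with sham. Under the brown label 4 fell and 0 rose, and under the beige label 3 fell and 1 rose, with median log2 ratios of -1.46 and -0.76. Hcar1 and Hcar2, receptors of lactate and of hydroxy acids that hold lipolysis down, fell 3.34-fold and 3.18-fold under the brown label and 2.90-fold and 2.07-fold under the beige label. Ptger4, another receptor of prostaglandin E2, fell 2.37-fold under the brown label. Adra1d rose 2.03-fold (1.08 to 3.67) under the beige label on 17 against 40 UMIs.

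Downstream of the receptors, Gnal was the 1 G protein subunit of 8 counted that was called. Gnal encodes a stimulatory alpha subunit related to Gs. It was at 71.4 CPM in sham and 5.25 after surgery under the brown label, and at 70.8 and 16.8 under the beige label. Gnal fell 13.6-fold (8.68 to 22.6) and 4.22-fold with surgery, with both surgery libraries below both sham libraries. Of 6 counted cyclases, Adcy3 fell 2.99-fold under the brown label and Adcy5 rose 2.84-fold (2.55 to 3.16) under the beige label. Of 13 counted phosphodiesterases, enzymes that break down cyclic AMP and GMP, 3 rose under the brown label, from Pde4a at 2.13-fold to Pde11a at 9.56-fold, and of 12 counted under the beige label none rose or fell.

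Among 9 counted kinases and anchors, Akap12, an anchor of protein kinase A, fell 2.36-fold under the brown label and 2.34-fold under the beige label. Prkg1, the cyclic GMP-dependent kinase, fell 2.69-fold under the brown label. All 8 genes of receptor desensitisation were counted, and under the brown label Grk3 rose 2.07-fold and Grk4 fell 2.39-fold, while under the beige label Grk5 rose 2.59-fold. Of 21 ligands and enzymes that make or destroy ligands, 3 of 12 counted rose under the brown label, from Maob, a monoamine oxidase, at 2.5-fold to Nt5e, which makes adenosine, at 4.83-fold. Under the beige label 2 of 10 rose and 1 fell. Adk, which removes adenosine, rose 2.46-fold and Hpgd, which breaks down prostaglandins, fell 2.07-fold. Outside the related receptors, the list medians lay between -0.17 and 0.40, against -0.07 and -0.09 for all genes.

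Genes of the other strand overlap 5 members, and the labels do not say whether counting used the strand. The partners had few UMIs in adipocyte-like nuclei. Gm5144, over Npr3, had 387, 6, 464 and 8, and Gm45470, over Adrb3, had 689, 38, 415 and 53. Gm12473, over Npr2, had 90, 8, 50 and 6, against 573, 66, 430 and 90 for Npr2.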

How the data were processed

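Per the labels, the molecule is nuclear RNA and libraries followed a SeekGene protocol, although the protocol describes digested tissue and viable cells. Per the submitters' processing notes, the build is mm10 and Seurat 4.4.0 and 4 were used, in a role not stated. Neither an aligner nor a counter is given in the sources used here. The authors deposited UMI counts of 32285 genes per barcode for each of the 4 libraries, and these counts were the only data used.

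Filters of 500 UMIs, 300 genes and a mitochondrial share below 10% removed 3 to 34 barcodes per library. Doublets were scored by the Scrublet method. Its automatic threshold failed in all 4 libraries, so the highest-scoring 6% were removed. Clustering used 2000 variable genes without the 9 members, 30 principal components, 15 neighbours and Leiden resolution 1.0 (Python 3.11.15, leidenalg 0.10.2). A cluster needed at least 3 markers of a class at 2-fold over the median of clusters, with a mean marker fold of 4 or more. The limits of naming were chosen after clusters were seen, and names end in "-like" because only RNA was measured. Unnamed clusters held 838 to 2219 nuclei per library.

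UMIs were summed per class and library and scaled to CPM. Intervals (95%) are exact Poisson for CPM, exact Clopper-Pearson for shares and exact conditional binomial for ratios. A limit on a count of 0 uses 3 counts. TMM factors came from edgeR 4.0.16 and served as an alternative scaling only. The calling procedure was checked on simulated Poisson counts. Its intervals assume the same model, so the check does not cover spread between nuclei or animals. All 9 members are named, and from each gene list the called genes with the highest and lowest ratio in each surgery comparison, with other called genes named after their values were seen. A called gene of the related receptors is not reported here. The members, gene lists and markers were chosen with earlier results of these data known. Coordinates came from GENCODE M21, which held 32235 of the gene identifiers. Promoters came from RefSeq (GRCm38.p6). They matched 7 members, and Adrb3 and Adra1a had no entry.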

Additional observations from a re-analysis of the deposited data

Results flagged for a closer look

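Npr3 lay on opposite sides of 1 between the tissue labels in the sham and the surgery libraries. The BAT over BeAT ratio in adipocyte-like nuclei was 1.28 (1.27 to 1.30) in sham and 0.672 (0.629 to 0.717) after surgery, a log2 difference of -0.93. Adrb3 did so the other way, at 0.978 (0.963 to 0.994) in sham and 1.27 (1.20 to 1.33) after surgery, a log2 difference of 0.37. With 1 library per group the difference between the contrasts was not tested, and the intervals cover counting error only. The nuclei of BAT surgery were nearly all of cluster 18 (534 of 573) and those of BeAT surgery of clusters 0 and 2 (196 and 296), so label and cluster cannot be told apart after surgery.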

How the results depend on the processing

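With 1 library per group, no library could be left out. No paired analysis was possible because no group had a second sample. Alternatives changed the scaling (TMM, median of ratios), the minimum of UMIs, the fold threshold, doublet removal, clustering resolution, adipocyte definition, depth and, chosen after seeing the data, the sham library. A further alternative took the gene span trend off the ratios. Of 320 ratios under an alternative, 311 stayed on their side of the threshold, 5 passed it anew and 4 no longer passed it. The alternatives for the minimum of UMIs and the fold threshold leave the ratio itself unchanged. In these no sign could turn and no call could be lost. The sign turned in 14, of which 0 were called in the main analysis or under the alternative. These were of 6 members: Ptger3 moved from -0.16 to 0.52 (brown label, against the other sham library), Npr1 from -1.13 to 2.27 (beige label, thinned) and from 0.22 to -0.44 between the sham libraries (cluster 0), Adrb1 from -0.25 to 0.59 (beige label, cluster 2), and Adora1 from -0.34 to 0.11 between the surgery libraries (thinned), with the other turned ratios between -0.04 and 0.14. At 1.5-fold, the members called rose from 3 to 5 in the brown-label surgery comparison (adding Adra1a and Adrb3) and from 0 to 1 between the sham libraries (Ptger3), where 11.8% (brown label) and 5.65% (sham libraries) of all counted genes were called higher and 19.7% and 5.05% lower at that fold. With nuclei thinned to 1000 UMIs, 1 member (Adra1a) was called between the surgery libraries instead of 2, and Adrb1 had a log2 ratio of -1.57 on too few UMIs. Thinning also brought Adra1a to a log2 ratio of 1.16 in the brown-label comparison, past the threshold. Npr1 there was under 50 UMIs when thinned (2.57) and against the other sham library (2.70). Adrb3 was -0.91 in adipocyte cluster 2 under the beige label. Log2 ratios of Npr3 ran from -2.56 to -2.01 (brown label) and from -1.94 to -1.34 (beige label), and of Adra1a under the beige label from 1.66 to 2.18, called in every alternative run. Comparisons with BAT surgery could not be run within 1 cluster. Scaling moved all ratios by at most 0.09 on the log2 scale.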

Other observations

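The CPM of Adrb3 was higher in lymphatic endothelial-like than in T or NK-like nuclei of both surgery libraries. The levels were 42.0 CPM (6 UMIs) against 4.04 CPM (1 UMI) in BAT surgery, where the intervals of 15.4 to 91.4 and 0.102 to 22.5 overlapped, and 60.2 CPM (24 UMIs) against 19.4 CPM (83 UMIs) in BeAT surgery. The UMIs of BeAT surgery lay in 5.43% of 92 nuclei, so few nuclei held them.

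In Schwann-like nuclei of the sham libraries Adora1 was at 35.4 CPM (11 UMIs) under the brown label and 53.0 CPM (7 UMIs) under the beige label, beside 48.4 and 45.3 CPM in adipocyte-like nuclei. The intervals of 17.7 to 63.4 and 21.3 to 109 CPM were wide. Adrb3 was at 364 and 220 CPM in the same Schwann-like nuclei, and Adora1 in T or NK-like nuclei of these libraries was at 4.45 and 8.83 CPM (2 and 3 UMIs). The quotient of Adora1 over Adrb3 against adipocyte-like nuclei was 2.74 (1.33 to 5.09) and 7.41 (2.74 to 17.3), and the part of RNA from adipocytes in these levels was not tested. The epithelial-like cluster of BAT surgery with Adra1a at 669 CPM also had Adora1 at 34.9 CPM in 23.4% of its nuclei.

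Unnamed clusters held 611 of 2747 Npr1 UMIs. A cluster led by C7, Wt1 and Col6a5 had Npr1 at 67.6 CPM (BAT sham), 71.4 CPM (BAT surgery) and 51.3 CPM in BeAT sham. The cluster with Stac, Kcnj8 and Rgs4 among its leading genes had 42.1, 21 and 49.2 CPM in the same libraries. An unnamed cluster led by hemoglobin and mitochondrial genes had median depths of 862 UMIs in BAT sham and 970 in BeAT sham. Its Npr1 level was 53.0 CPM (48 UMIs) in BAT sham, 53.2 CPM (129 UMIs) in BeAT sham and 28.4 CPM (6 UMIs) in BeAT surgery.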
